A study of Mus musculus with 24 samples.

Results

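The genotype by time interaction is the comparison of a pair of genotype effects. For each gene, the ieET-1 minus ieCre difference in mesenteric arteries 16 days after tamoxifen (short term) was subtracted from the same difference 3 months after tamoxifen (long term). It was calculated on the scale log2(value + 1) from all 24 libraries, with 6 mice in each of the 4 groups. A positive interaction means that ieET-1 stood higher against ieCre at the long term than at the short term, and a negative one the reverse. The deposited table has 29020 gene rows, and 14544 of them were tested because they reached a value of 1 in 6 libraries or more.

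All mice were males that entered the study at 10 to 12 weeks of age. Both genotypes carry a tamoxifen-inducible Cre recombinase driven by the Tie2 promoter in the endothelium, and ieET-1 mice also overexpress human endothelin-1 there once Cre is active. Both genotypes received tamoxifen at 1 mg/kg/day for 5 days, so tamoxifen and Cre are common to all 4 groups. Mice of the ieET-1 long-term and ieCre long-term groups were killed 3 months later, and mice of the ieET-1 short-term and ieCre short-term groups 16 days later. Each library is 1 mouse, named by its animal ID, and no mouse was sampled at both times. Time therefore compares different mice, which were also older at the long term.

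Endothelin-1 is a peptide released by endothelial cells that constricts the smooth muscle beneath them through the receptor Ednra, while Ednrb on endothelial cells favours relaxation and clears the peptide. It is cut from its precursor by converting enzymes such as Ece1. In resistance arteries a lasting excess of endothelin-1 is known for wall thickening, matrix deposition and endothelial dysfunction, processes that build up with time, which is what an interaction with time would register.

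The libraries hold 9635250 to 16181605 recovered reads, with a median of 13017255, and 3 reads equal a value between 0.177 and 0.461, depending on the library. Artery markers were present in every library: Acta2, the actin of smooth muscle, had values of 2635 to 6600, and Cdh5, the cadherin of endothelial junctions, 62.1 to 163. Some libraries stood apart. Mouse 9489 (ieET-1 long term) had 24399 genes with reads, where the median library had 19992.5. Gm42418, which overlaps ribosomal RNA sequence, took over 10% of the reads in 4 libraries: mice 8135 and 8136 (ieET-1 long term, 21.3% and 11.9%), mouse 9491 (ieCre long term, 11.5%) and mouse 9955 (ieCre short term, 26.6%). For the pseudogene Rpl3-ps1, mouse 8152 (ieET-1 long term) had 1.27 and mouse 8089 (ieCre long term) 11.9, each near the level of the other genotype, while Khdrbs3 in both followed its label. The animal IDs were also grouped into ranges that do not cross time. No interaction can therefore be formed within a range, and the genotype difference within each range is given instead. The long-term mice have IDs 80xx to 81xx or 94xx, and the short-term mice IDs of 1 to 3 digits or other IDs of 4 digits. Those other IDs lie on either side of 94xx: ieET-1 mice 8987, 8991 and 8992, and ieCre mice 8754, 9955, 9957 and 9958. With 1 to 3 digits, ieET-1 mice are 256 to 258 and ieCre mice 8 and 10. Differences within the short-term ranges thus do not compare mice of neighbouring IDs. At the long term, ieET-1 mice 8134, 8135, 8136 and 8152 and ieCre mice 8088 and 8089 have IDs 80xx to 81xx. IDs 94xx belong to ieET-1 mice 9489 and 9490 and ieCre mice 9485, 9486, 9487 and 9491. The long-term genotypes are therefore spread unevenly over the ranges, so their difference is partly confounded with ID range.

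No gene passed the interaction test. By limma with Benjamini-Hochberg adjustment, 0 genes (0.0%) had an adjusted p below 0.05, and the smallest adjusted p was 0.752. At an unadjusted p below 0.05 there were 731 genes (5.03%), against the 727.2 that make up 5% of the genes tested. Of these, 399 were positive (2.74%) and 332 negative (2.28%). Of all tested genes, 7276 had an interaction above 0 and 7268 one below. On recovered reads, edgeR's quasi-likelihood test called 0 genes, with 780 at an unadjusted p below 0.05, and DESeq2 called 6, with 831. The median interaction was 0.00 on the log2 scale, and the middle 90% of genes lay between −0.35 and 0.46.

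The precision sets what these 24 libraries could show. The median standard error of an interaction was 0.20 on the log2 scale, which gives a 95% interval of 0.41 on either side. For 12913 genes (88.8%) the whole interval lay within 1 log2 unit of 0. For 5132 genes (35.3%) it lay within 0.5 log2 units. A miss of the threshold does not show that the pair of genotype effects was equal.

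Large interactions were mostly positive. An interaction above 1 on the log2 scale was seen for 117 genes and one below −1 for 16 genes. Of the 117, 28 had an unadjusted p below 0.05; 18 were pancreatic acinar genes and 9 belonged to steroid hormone synthesis. Of the 20 genes beyond 2 in either direction, 7 had an unadjusted p below 0.05, and 7 were members of the steroid list.

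**Figure D1:**
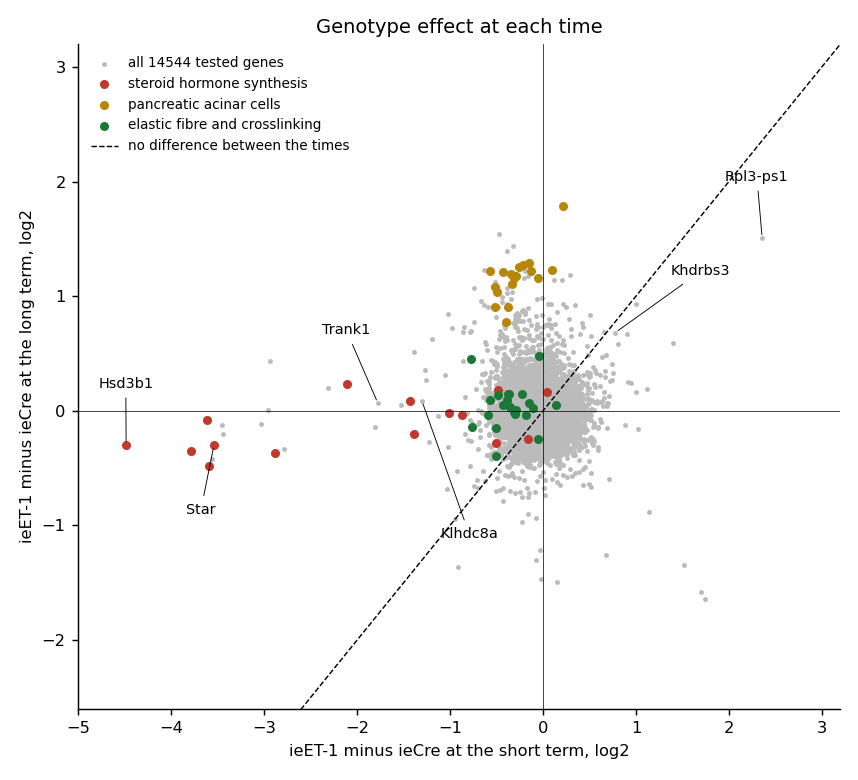
Genotype effect of every tested gene at the short term (x axis) and at the long term (y axis), both as ieET-1 minus ieCre in log2; each point is a gene, and the distance above the dashed line is its interaction. Of 15 genes of steroid hormone synthesis, 14 lie left of 0, some far (Hsd3b1 at −4.49 and −0.30) and some less so (Scarb1 at −0.49 and 0.18). Their median effect is −1.44 at the short term and −0.20 at the long term. Pancreatic acinar genes lie high, and Khdrbs3 lies near the line.

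The study's own genes had interactions whose intervals spanned 0. Khdrbs3 encodes an RNA-binding regulator of splicing, and the series title links it to Vegfa isoforms. Its values ran from 79.9 to 92.4 (median 87.5) in ieET-1 long term and 46.8 to 62.5 (median 53.7) in ieCre long term, against 71.2 to 91.2 (median 82.5) in ieET-1 short term and 38.0 to 54.7 (median 49.0) in ieCre short term. The genotypes did not overlap at either time, which held for 0.103% of all genes at the long term and 0.763% at the short term, and Khdrbs3 was the 1 tested gene that was separated in the same direction at both times. The genotype effect was 0.68 at the long term and 0.77 at the short term, and their difference was −0.09 (SE 0.12, 95% interval −0.34 to 0.15, unadjusted p = 0.441). Within ID ranges the ieET-1 minus ieCre difference of Khdrbs3 was 0.57 (80xx to 81xx), 0.78 (94xx), 0.72 (1 to 3 digits) and 0.78 (4 digits).

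Edn1 is the mouse endothelin-1 gene; whether reads of the human transgene were counted toward it is not given in the sources. Its values ran from 24.1 to 37.7 (median 31.9) in ieET-1 long term and 23.5 to 36.0 (median 33.3) in ieCre long term, against 36.7 to 48.1 (median 46.7) in ieET-1 short term and 28.9 to 45.3 (median 36.1) in ieCre short term. Genotypes overlapped at both times. The interaction was −0.31 (SE 0.17, interval −0.66 to 0.05, unadjusted p = 0.0877). For Vegfa, the growth factor whose splice forms gave the study its title, the interaction was 0.16 (SE 0.18, interval −0.21 to 0.52, unadjusted p = 0.384). The table is per gene, so isoforms are not seen in it.

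Among 7 tested genes of the endothelin system, 0 were at an unadjusted p below 0.05 and the median interaction was 0.04, against 0.00 over all genes. The converting enzyme Ece1 had an interaction of 0.66 (interval −0.19 to 1.52), with values of 73.3 to 198 (median 143) in ieET-1 long term, 71.7 to 185 (median 98.2) in ieCre long term, 80.2 to 138 (median 98.4) in ieET-1 short term and 72.3 to 213 (median 137) in ieCre short term. All 4 groups overlapped for Ece1, and with animal ID range as a term its interaction was 0.24. The receptor gene Ednrb had −0.39 (interval −0.90 to 0.13).

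Of 10 genes for VEGF ligands and receptors, 9 had a positive interaction and 0 an unadjusted p below 0.05, with a median of 0.25. Kdr, the main signalling receptor of VEGF, had 0.42 (interval −0.08 to 0.92), Nrp1, its co-receptor, 0.29 (interval −0.15 to 0.73) and the ligand gene Pgf 0.27 (interval −0.13 to 0.67). With animal ID range as a term the median of this list was 0.03. Of 27 splicing regulators, 2 had an unadjusted p below 0.05, both negative (2.28% of all genes), and the median was −0.07. With 1 mouse left out that count ran from 0, without mouse 10, 256, 8135, 8136, 8152, 9486, 9955 or 9957, to 4, without mouse 8754. These were Srsf1, an SR protein that promotes exon inclusion (−0.21, unadjusted p = 0.0425), and Clk1, a kinase of SR proteins (−0.26, unadjusted p = 0.0473). For Srsf10, a splicing factor of the same family, the interaction was −0.31 (unadjusted p = 0.0649).

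Genes of steroid hormone synthesis had the largest positive interactions of the gene lists described here. The adrenal cortex makes these hormones from cholesterol: Star brings cholesterol into mitochondria, Cyp11a1 cuts its side chain, Hsd3b1, Cyp21a1 and Cyp11b1 lead to corticosterone, Cyp11b2 makes aldosterone, and the transcription factor Nr5a1 switches the pathway on. Of 20 listed genes, 19 were in the table and 15 tested. Of the 15, 12 had a positive interaction at an unadjusted p below 0.05 and 0 a negative one, against 2.74% and 2.28% of all genes. The median interaction was 1.52; the median genotype effect was −0.20 at the long term and −1.44 at the short term. None of the 15 passed over all genes. A less abundant cell type and less RNA per cell cannot be told apart in whole arteries, here or in any list below.

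To show the regulatory sequence of this group, 2 promoter windows are printed, 250 bases before to 50 bases after the gene start, from RefSeq on GRCm38.p6, 5′ to 3′. Windows were at hand for 7 of the 15 tested genes, 8 windows in all. The motif searched was AAGGTCA, the core that Nr5a1 binds, on both strands, where its reverse is TGACCTT. It was found in 1 of these 8 windows and in 1550 of all 32851 windows (4.72%). Hsd3b1, with the largest interaction of any tested gene, has no match in its window (chr3:98859745-98860044, minus strand). Akr1b7, an aldose reductase-like gene of the mouse adrenal cortex, has the match, in capitals, starting 248 bases before the gene start (chr6:34412112-34412411, plus strand).
Hsd3b1: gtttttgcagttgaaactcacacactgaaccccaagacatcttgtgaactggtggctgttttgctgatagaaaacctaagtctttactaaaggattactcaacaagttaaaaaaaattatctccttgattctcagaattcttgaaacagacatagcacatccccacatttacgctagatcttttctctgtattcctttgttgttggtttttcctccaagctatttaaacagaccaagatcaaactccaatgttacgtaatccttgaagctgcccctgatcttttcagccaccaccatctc
Akr1b7: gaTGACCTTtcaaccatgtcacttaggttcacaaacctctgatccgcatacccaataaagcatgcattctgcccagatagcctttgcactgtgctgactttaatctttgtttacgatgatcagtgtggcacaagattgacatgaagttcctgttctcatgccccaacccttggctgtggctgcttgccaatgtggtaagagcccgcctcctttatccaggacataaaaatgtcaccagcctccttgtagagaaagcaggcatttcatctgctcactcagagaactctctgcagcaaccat
A match of these letters is a description and no evidence of binding.

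Hsd3b1 (chr3:98852194-98859794, minus strand) had values of 7.61 to 85.9 (median 8.93) in ieET-1 long term and 7.86 to 66.7 (median 14.6) in ieCre long term, against 0 to 28.4 (median 0.992) in ieET-1 short term and 8.17 to 191 (median 118) in ieCre short term. The long-term genotypes overlapped throughout. At the short term, 5 of 6 ieCre mice lay at 88.9 or more and mouse 9955 at 8.17, while ieET-1 mice 8987 and 8992 had 28.4 and 25.8 and the other 4 had 1.74 or less. The interaction was 4.19 (SE 1.22, interval 1.67 to 6.71, unadjusted p = 0.0022). Its genotype effect was −0.30 at the long term and −4.49 at the short term.

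The same libraries were high and low for the other enzymes. Star (chr8:25806555-25815982, plus strand) had values of 6.64 to 45.7 (median 16.7) in ieET-1 long term and 9.62 to 35.8 (median 19) in ieCre long term, against 1.41 to 20.4 (median 2.32) in ieET-1 short term and 9.96 to 174 (median 70.9) in ieCre short term. Its interaction was 3.24 (SE 0.88, interval 1.43 to 5.06, unadjusted p = 0.00115). Cyp21a1 (chr17:34801348-34804561, minus strand) ranged from 2.87 to 14.5 (median 4.90) in ieET-1 long term and 2.18 to 15.9 (median 6.98) in ieCre long term, against 0 to 7.71 (median 0.562) in ieET-1 short term and 5.65 to 74.3 (median 30.4) in ieCre short term. Its interaction was 3.54 (SE 0.86, interval 1.77 to 5.30, unadjusted p = 0.000379). For both genes the genotypes overlapped at each time, at the short term through mouse 9955 on the ieCre side and mice 8987 and 8992 on the ieET-1 side.

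Cyp11b1 had an interaction of 3.44 (interval 1.44 to 5.44), Cyp11a1 3.11 (interval 1.11 to 5.12), Srd5a2, a reductase of testosterone, 2.34 (interval 1.03 to 3.66), Nr5a1 1.52 (interval 0.62 to 2.41) and Cyp11b2 1.18 (interval 0.44 to 1.93). In ieET-1 short term, Nr5a1 was 0 in 4 of 6 mice and Cyp11b2 in 5 of 6, so these log2 values depend on the pseudocount of 1. Hsd3b1, Cyp21a1, Cyp11b1, Cyp11a1 and Srd5a2 were also at or near 0 in some of these mice, so the same limit applies. With a pseudocount of 0.25 the interaction was 4.42 for Cyp21a1, 4.34 for Cyp11b1 and 3.93 for Cyp11a1. Akr1b7 had 2.51, the melanocortin receptor gene Mc2r 0.99, the electron carrier gene Fdxr 0.83 and the HDL receptor gene Scarb1 0.67. The remaining 3 tested members, Fdx1, Srd5a1 and Mrap, had 0.22, 0.13 and −0.08.

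Seen as time differences, the same numbers come from both genotypes. From Hsd3b1, long minus short term was 2.08 in ieET-1 mice and −2.11 in ieCre mice, and from Star 1.63 in ieET-1 mice and −1.61 in ieCre mice. By ID range, the ieET-1 minus ieCre difference of Hsd3b1 was −0.33 (80xx to 81xx) and 0.32 (94xx) at the long term, and −6.48 (1 to 3 digits) and −2.62 (4 digits) at the short term. The summed level of all 19 listed genes present in the data, tested or not, ran from 89.9 to 274 in ieET-1 long term and 105 to 269 in ieCre long term. At the short term it ran from 56.3 to 159 in ieET-1 mice and 111 to 735 in ieCre mice. The interaction of Hsd3b1 stayed between 3.70 and 4.84 with any 1 mouse left out. With an adrenal score per library as a term, which averages Hsd3b1, Star, Cyp21a1, Cyp11b1 and Cyp11a1 on the log2 scale, the median of the 15 genes was 0.08, which follows in part from building the score from 5 of them. The 12 chromaffin genes of the adrenal medulla that were tested had a median interaction of −0.03 and 0 members at an unadjusted p below 0.05. That median ran from −0.17 to 0.23 with 1 mouse left out. In ieCre long term, the mean log2 value of these genes was 4.26 in mouse 8088 and 1.48 to 2.41 in the others. Whether adrenal tissue in some samples plays a part in these interactions was not tested.

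**Figure D2:**
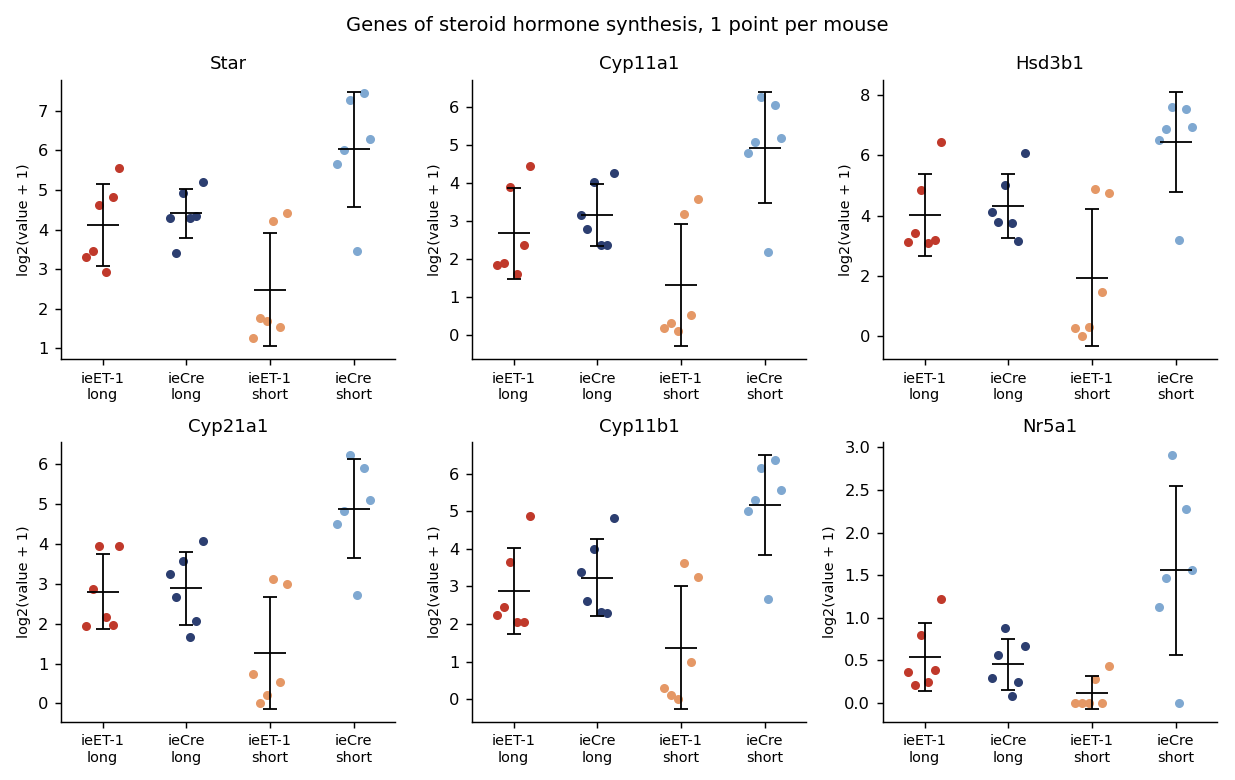
Values of 6 genes of steroid hormone synthesis as log2(value + 1) in each of the 4 groups; each point is a mouse and bars are the mean and SD over 6 mice. The long-term groups overlap, while at the short term 4 of 6 ieET-1 mice lie near 0 for Hsd3b1 and 5 of 6 ieCre mice lie above all ieET-1 mice.

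Outside the steroid list, the smallest unadjusted p-values belonged to Klhdc8a and Trank1. Klhdc8a (chr1:132298626-132307357, plus strand) encodes a kelch-repeat protein. Its values were 1.15 to 2.82 (median 1.53) in ieET-1 long term and 1.10 to 2.11 (median 1.52) in ieCre long term, against 0.521 to 1.98 (median 1.22) in ieET-1 short term and 2.08 to 7.32 (median 4.56) in ieCre short term. The long-term genotypes overlapped and the short-term genotypes did not. The interaction was 1.39 (SE 0.31, interval 0.76 to 2.03, unadjusted p = 0.000132), the smallest p of all genes. Within ID ranges the genotype difference of Klhdc8a was 0.02 (80xx to 81xx), 0.25 (94xx), −1.51 (1 to 3 digits) and −1.07 (4 digits).

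Trank1 (chr9:111311739-111395775, plus strand), named for its ankyrin and tetratricopeptide repeats, had values of 0.785 to 2.67 (median 1.62) in ieET-1 long term and 0.766 to 2.75 (median 1.66) in ieCre long term, against 0.0744 to 1.13 (median 0.245) in ieET-1 short term and 0.892 to 11.2 (median 3.82) in ieCre short term. The genotypes overlapped at both times, at the short term through mouse 9955 with 0.892 and ieET-1 mice 8987 and 8992 with 1.01 and 1.13. Its interaction was 1.84 (SE 0.44, interval 0.93 to 2.76, unadjusted p = 0.000357). The other ieET-1 short-term mice had 0.0744 to 0.330, so this log2 value also depends on the pseudocount of 1. Prss35, which encodes a serine protease-like secreted protein, had 1.91 (SE 0.51, interval 0.85 to 2.96, unadjusted p = 0.000997). In ieCre short term, mouse 9955 had 1.78 for Prss35 and the other 5 mice 7.13 to 18.1. With the adrenal score as a term, the interactions were 0.57 for Klhdc8a, 0.49 for Trank1 and 0.59 for Prss35. DESeq2 called these 3 genes and Cyp11b2, with adjusted p of 0.0269 for Klhdc8a, Trank1 and Cyp11b2 and 0.0362 for Prss35; its other 2 calls were the predicted genes Gm24245 and Gm25911.

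Galnt16 (chr12:80518277-80630972, plus strand), an enzyme that starts O-linked glycosylation, differed by less but with little spread. Its values were 28.0 to 40.3 (median 32.6) in ieET-1 long term and 27.2 to 35.2 (median 30.4) in ieCre long term, against 30 to 39.9 (median 34.5) in ieET-1 short term and 41.8 to 53.3 (median 43.4) in ieCre short term. The short-term genotypes did not overlap. The interaction was 0.50 (SE 0.13, interval 0.23 to 0.77, unadjusted p = 0.000739), and 0.47 with the adrenal score as a term. In the Galnt family, 14 genes were tested and 3 had a positive interaction at an unadjusted p below 0.05 (2.74% of all genes), Galnt16, Galnt10 (0.51) and Galnt5 (0.60).

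Genotype effects of opposite sign at the short and long term were found for few genes. A total of 10 genes had an unadjusted p below 0.05 in both genotype comparisons with opposite signs, against 57 with the same sign. The background for each comparison was 2.99% of all genes at the long term (1.29% positive, 1.71% negative) and 9.91% at the short term (4.61% positive, 5.30% negative). For 0 genes were the genotypes fully separated in opposite directions. For 8 of the 10 ieET-1 was higher at the long term and lower at the short term. Col6a5 (chr9:105856078-105960643, minus strand), a chain of collagen VI, had values of 11.8 to 38.2 (median 20.6) in ieET-1 long term and 7.70 to 17.7 (median 11.9) in ieCre long term, against 7.22 to 16.7 (median 10.9) in ieET-1 short term and 10.9 to 46.1 (median 19.9) in ieCre short term. The groups overlapped at each time, and the genotype effect was 0.70 at the long term and −0.78 at the short term (interaction 1.48, interval 0.61 to 2.34, unadjusted p = 0.00176). By ID range it was 0.85 (80xx to 81xx), 0.75 (94xx), −0.92 (1 to 3 digits) and −0.74 (4 digits).

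Itih2, which encodes a heavy chain that binds hyaluronan, had 0.79 (genotype effect 0.41 at the long term and −0.38 at the short term), Slc7a5, a carrier of large amino acids, 1.06 (0.55 and −0.50), Igf2r, the receptor that clears IGF2, 0.72 (0.35 and −0.36), and Lrrc8e, a subunit of volume-regulated anion channels, 0.84 (0.43 and −0.42). The others with this sign were St5, Hdlbp and D17H6S53E, at 0.62, 0.49 and 0.36. The pair with the reverse signs was Rnf165 (−0.74, effects −0.32 and 0.42) and Mfap3l (−0.55, effects −0.26 and 0.28).

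Negative interactions were smaller. Among named genes with the 12 smallest p-values on the negative side, the interactions ran from −0.94 for Hoxa9 to −0.33 for Ccdc59. Zfp605 (chr5:110110092-110129794, plus strand), a zinc finger gene, had values of 10.1 to 14.9 (median 12.9) in ieET-1 long term and 13.7 to 17.3 (median 14.8) in ieCre long term, against 12.0 to 18.9 (median 15.7) in ieET-1 short term and 7.13 to 16.1 (median 10.4) in ieCre short term. Its interaction was −0.75 (SE 0.20, interval −1.17 to −0.33, unadjusted p = 0.00114). Hoxa9 (chr6:52223100-52231089, minus strand), a homeobox gene of posterior body position, had 3.53 to 5.56 (median 4.71) in ieET-1 long term and 3.54 to 8.01 (median 6.48) in ieCre long term, against 5.77 to 10.3 (median 8.38) in ieET-1 short term and 2.82 to 7.54 (median 5.52) in ieCre short term. For both genes the genotypes overlapped at each time.

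The remaining 10 of these genes were Snupn (−0.49), which imports spliceosomal RNPs, Tgs1 (−0.36), which trimethylates the caps of small RNAs, Pxmp2 (−0.50), a peroxisomal membrane pore, Bmp5 (−0.50), a bone morphogenetic ligand, Gimap5 (−0.41), a GTPase of lymphocyte survival, the ubiquitin ligases Rnf125 (−0.49) and Rnf165 (−0.74), Mfap3l (−0.55), the zinc finger gene Rslcan18 (−0.53) and Ccdc59 (−0.33). Gimap5 differed from the others in where the difference lay. Its values were 5.60 to 8.60 (median 6.59) in ieET-1 long term and 8.19 to 10.3 (median 9.12) in ieCre long term, against 5.94 to 8.26 (median 6.45) in ieET-1 short term and 5.65 to 7.65 (median 6.93) in ieCre short term, so the genotype effect was −0.41 at the long term and 0.00 at the short term. Of all genes, 1 passed the long-term genotype comparison (0.00688%) and 12 the short-term comparison (0.0825%). Among these, Ssbp4, a DNA-binding protein gene, had an interaction of 0.18 and Rpl3-ps1 one of −0.85, which was −0.46 without mouse 8089 and −0.44 without mouse 8152.

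**Figure D3:**
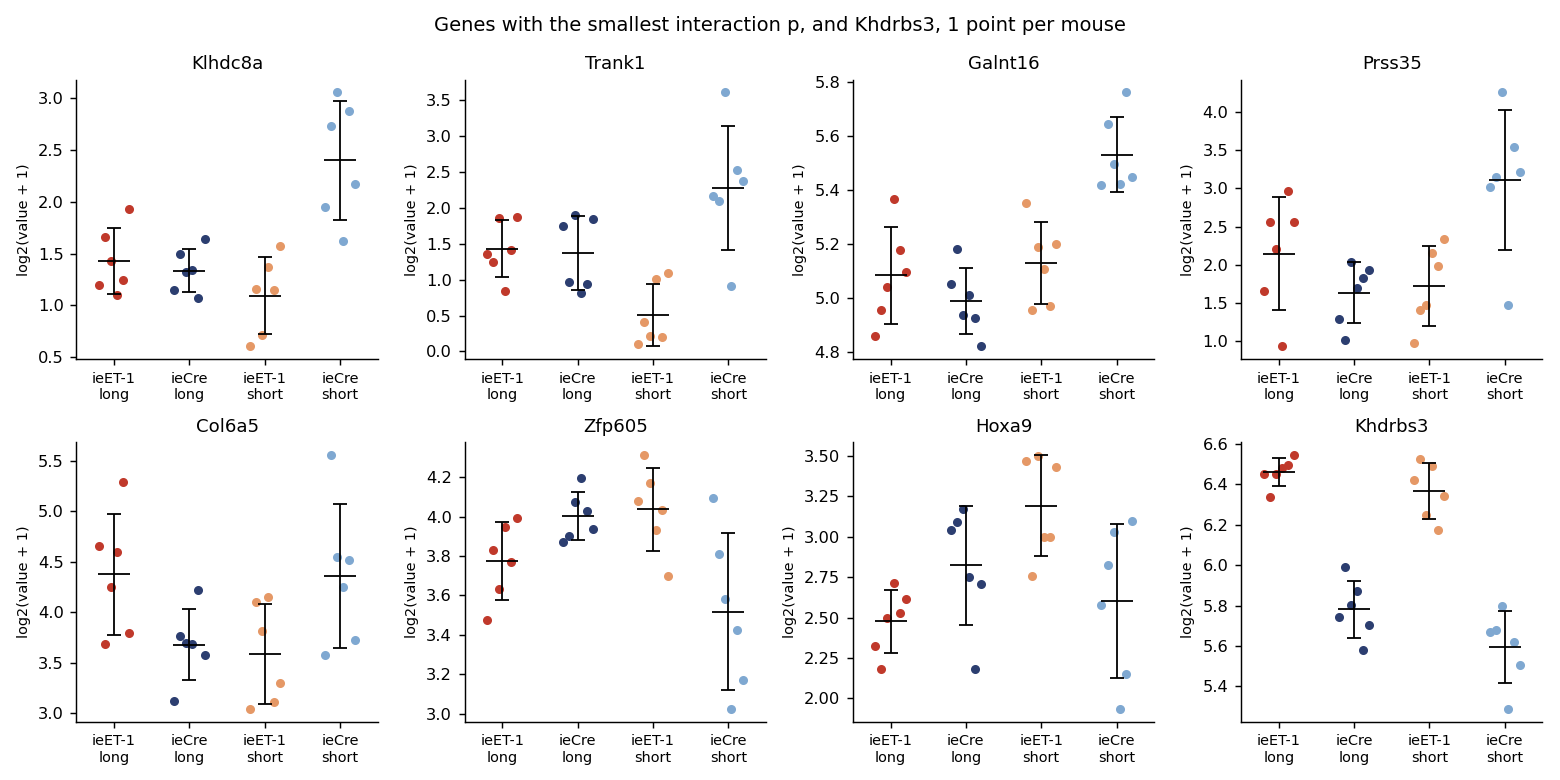
Values of 7 genes with small interaction p-values, and of Khdrbs3, as log2(value + 1) in each of the 4 groups; each point is a mouse and bars are the mean and SD over 6 mice. For Galnt16 the ieCre short-term mice lie above all other mice, for Klhdc8a 5 of 6 of them do, and for Khdrbs3 the genotypes are separated at both times.

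Lists of matrix genes differed in sign: those of elastic fibres, collagens and metalloproteinases had positive medians and that of small leucine-rich proteoglycans a negative one. Elastic fibres give arteries their recoil and are built from elastin on a fibrillin scaffold. Of 22 tested genes of elastic fibres and crosslinking, 20 had a positive interaction and 4 an unadjusted p below 0.05, all positive, where 2.74% of all genes were, with a median of 0.38 (genotype effects 0.04 at the long term and −0.36 at the short term). The fibrillin gene Fbn1 had values of 461 to 914 (median 657) in ieET-1 long term and 523 to 731 (median 600) in ieCre long term, against 820 to 1243 (median 979) in ieET-1 short term and 1033 to 1460 (median 1353) in ieCre short term. The genotypes overlapped at each time, and the interaction was 0.53 (interval 0.11 to 0.94, unadjusted p = 0.0148).

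Ltbp2, a latent TGF-beta binding protein of microfibrils, had 1.23 (interval 0.23 to 2.23), Mfap2, a microfibril protein, 0.62 (interval 0.10 to 1.14) and Loxl3, a lysyl oxidase that crosslinks elastin and collagen, 0.51 (interval 0.09 to 0.93). For elastin itself, Eln, the interaction was 0.62 with an interval of −0.17 to 1.41. Within ID ranges the median genotype difference of the 22 genes was 0.03 (80xx to 81xx), −0.08 (94xx), −0.25 (1 to 3 digits) and −0.29 (4 digits). The median of the list was 0.16 without the 4 libraries high in Gm42418, with 2 genes at an unadjusted p below 0.05. That count was 7 without mouse 8, 10, 8088 or 8134 and 8 without mouse 8992.

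Of 34 collagen chain genes, 28 had a positive interaction and 6 an unadjusted p below 0.05, all positive (2.74% of all genes), with a median of 0.18. Collagen VI, which links cells to the matrix, held 4 of the 6: Col6a5, Col6a6 (0.88, unadjusted p = 0.0144), Col6a1 (0.62, unadjusted p = 0.0241) and Col6a3 (0.56, unadjusted p = 0.0206). Col6a1 had values of 254 to 516 (median 429) in ieET-1 long term and 287 to 531 (median 356) in ieCre long term, against 405 to 700 (median 506) in ieET-1 short term and 520 to 918 (median 790) in ieCre short term. The other 2 of the 6 were Col15a1 (0.69) and Col23a1 (0.47). The main fibrillar chains of the arterial wall, Col1a1 and Col3a1, had −0.03 and 0.04. With 1 mouse left out the count of positive chains at an unadjusted p below 0.05 ran from 4 to 11, with 10 without mouse 8088 and 11 without mouse 8134, and without the 4 libraries high in Gm42418 it was 2.

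Of 16 metalloproteinases and their inhibitors, 13 had a positive interaction, and the median was 0.35. Only 1 was positive at an unadjusted p below 0.05, where 2.74% of all genes were. That gene was Mmp2, a gelatinase (0.48, interval 0.06 to 0.91, unadjusted p = 0.0279), while Mmp9, the other gelatinase, had 1.02 with an interval of −0.12 to 2.15. By ID range, the median genotype difference of the 16 genes was −0.13 (80xx to 81xx) and −0.08 (94xx) at the long term. At the short term it was −0.04 (1 to 3 digits) and −0.21 (4 digits). Of 10 small leucine-rich proteoglycans, which bind collagen fibrils, 8 had a negative interaction and 1 an unadjusted p below 0.05, with a median of −0.23, and 2.28% of all genes were negative at that p. That gene was Aspn, asporin (−0.54, unadjusted p = 0.0406); decorin, Dcn, had −0.30 and biglycan, Bgn, 0.04. With the adrenal score as a term the median of these 10 genes was 0.03.

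In the integrin alpha family, 12 genes were tested and 3 had a positive interaction at an unadjusted p below 0.05 (2.74% of all genes). They were Itga3 (0.92), Itga8 (0.68) and Itga9 (0.64), and Itga8 is also counted among the contractile genes below. Other stems of gene symbols also stood at 3 times the background or more. On the positive side they included Aldh (3 of 19), Exoc (2 of 12) and Man (2 of 10), against 2.74% of all genes. On the negative side they included Zscan (2 of 10), Zcchc (2 of 11) and Alg (2 of 12), against 2.28% of all genes. The largest stem to qualify was Zfp, with 33 of 348 tested genes negative and 3 positive. In small stems a single gene was enough to qualify, as for Akr (1 of 10 positive).

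Of 20 contractile genes of smooth muscle, 15 had a positive interaction, and the median was 0.32. Only 1 was positive at an unadjusted p below 0.05, where 2.74% of all genes were. Itga8, an integrin of smooth muscle, had 671 to 1106 (median 849) in ieET-1 long term and 430 to 979 (median 584) in ieCre long term, against 404 to 986 (median 704) in ieET-1 short term and 658 to 1135 (median 791) in ieCre short term. All groups overlapped, and its interaction was 0.68 (interval 0.08 to 1.28, unadjusted p = 0.0286). Acta2 had 0.48 (interval −0.11 to 1.06), which quantile normalization turned to −0.19, and desmin, Des, 0.55 (interval −0.14 to 1.24). Under quantile normalization 11 of the 20 genes were positive. Of 43 potassium channel genes, 2 had an unadjusted p below 0.05, both positive, a share near the 2.74% of all genes. Their median was 0.12, which animal ID range as a term turned to −0.02, and the count was 4 without mouse 8 and 5 without mouse 8134 or 9489. Kcnk3, a background potassium channel of smooth muscle, had 4.85 to 14.6 (median 8.09) in ieET-1 long term and 5.12 to 11.1 (median 9.10) in ieCre long term, against 3.94 to 9.63 (median 5.05) in ieET-1 short term and 10.5 to 20.7 (median 13.1) in ieCre short term. Its short-term genotypes did not overlap and its long-term genotypes did, with an interaction of 1.09 (SE 0.32, interval 0.42 to 1.76, unadjusted p = 0.00259), and 0.48 with the adrenal score as a term. Kcnd3, a subunit of A-type potassium channels, had 0.63 (interval 0.14 to 1.12).

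Endothelial genes, the cells in which the transgene acts, had 14 of 17 positive interactions and 0 at an unadjusted p below 0.05, with a median of 0.20. Tie1, an endothelial receptor tyrosine kinase, had 0.42 (interval −0.06 to 0.91) and Cdh5 0.44 (interval −0.07 to 0.94). Of 13 genes of Notch signalling, which links endothelium and smooth muscle, 12 were positive and 0 had an unadjusted p below 0.05, with a median of 0.37. The receptor gene Notch2 had 0.38 (interval −0.03 to 0.78) and the ligand gene Jag1 0.37 (interval −0.20 to 0.94). With animal ID range as a term, the medians were 0.01 for the endothelial list and 0.07 for the Notch list.

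Of 22 genes of glycolysis and the hypoxia response, 13 had a positive interaction and 6 an unadjusted p below 0.05, all positive (2.74% of all genes), with a median of 0.27. The count ran from 3, without mouse 257, 8754, 9485 or 9486, to 9 with 1 mouse left out. With animal ID range as a term it was 3 with a median of 0.12, and with the adrenal score as a term it was 0 with a median of 0.18. The 6 were glycolytic enzymes: Eno1 (0.81, unadjusted p = 0.0138), Gpi1 (0.69, unadjusted p = 0.0162), Aldoa (0.54, unadjusted p = 0.0221), Pfkm (0.55, unadjusted p = 0.0417), Hk1 (0.80) and Hk2 (0.46). Eno1 ranged from 127 to 236 (median 190) in ieET-1 long term and 111 to 194 (median 149) in ieCre long term, against 57.6 to 161 (median 95.9) in ieET-1 short term and 90.9 to 172 (median 138) in ieCre short term, with overlap at each time. Other members of the pathway did not share this sign: Tpi1, Gapdh and Ldha had −0.12, −0.05 and −0.02.

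Of 22 genes of cholesterol synthesis and homeostasis, 15 had a positive interaction and 4 an unadjusted p below 0.05, all positive (2.74% of all genes), with a median of 0.16. They were the synthesis enzymes Sqle (0.47, unadjusted p = 0.0116), Dhcr7 (0.65, unadjusted p = 0.0167), Mvd (0.48, unadjusted p = 0.0168) and Lss (0.44, unadjusted p = 0.0415). Sqle had values of 18.3 to 25.5 (median 23.3) in ieET-1 long term and 14.7 to 20.2 (median 16.8) in ieCre long term, against 9.85 to 16.6 (median 12.4) in ieET-1 short term and 11.3 to 17.3 (median 13.2) in ieCre short term. With the adrenal score as a term 0 of the 22 genes had an unadjusted p below 0.05 and the median was 0.03; Mvd then had 0.45, Sqle 0.31, Dhcr7 0.28 and Lss 0.21. The part of adrenal tissue in these interactions was not tested.

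Several lists had negative medians with few members at an unadjusted p below 0.05. Of 40 small nucleolar and Cajal body RNAs, which guide the modification of ribosomal and spliceosomal RNA, 38 had a negative interaction. The median was −0.40, and 2 were negative at an unadjusted p below 0.05, where 2.28% of all genes were. Scarna13 had 49.7 to 92.4 (median 81.4) in ieET-1 long term and 78.9 to 109 (median 93.8) in ieCre long term, against 57.7 to 82.1 (median 77.1) in ieET-1 short term and 51.1 to 87.8 (median 67.1) in ieCre short term. The genotypes overlapped at each time, and its interaction was −0.48 (unadjusted p = 0.0289). Snora57 had −0.83 (unadjusted p = 0.0488). With 1 mouse left out the count at an unadjusted p below 0.05 ran from 0, without mouse 8135, 9955 or 9957, to 12, without mouse 8992. Without the 4 libraries high in Gm42418, 0 of the 40 had an unadjusted p below 0.05 and the median was −0.15.

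Of 81 cytosolic ribosomal proteins, 70 had a negative interaction and 0 an unadjusted p below 0.05, with a median of −0.14; Rpl21 and Rpl31 had −0.35 and −0.29. Of 81 nuclear respiratory chain subunits, 67 were negative and 0 had an unadjusted p below 0.05, with a median of −0.15; Cox6c and Ndufb2 had −0.44 and −0.25. These signs did not hold in every setting. For the ribosomal proteins the median was 0.05 without the 4 libraries high in Gm42418 and 0.03 with animal ID range as a term, and for the respiratory chain 0.01 and −0.03 in those settings. Of 15 mitochondrially encoded genes, 12 were negative with a median of −0.24, and mt-Co1 and mt-Nd1 had −0.53 and −0.46; with animal ID range as a term the median was 0.05.

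Of 21 interferon-stimulated genes, 19 had a negative interaction, and the median was −0.24. Only 1, Mx2, was negative at an unadjusted p below 0.05, where 2.28% of all genes were. Mx2 had −0.46 (unadjusted p = 0.0415) and Ifit1 −0.67 (interval −1.44 to 0.10). For Ifit1, mouse 9487 (ieCre long term) had 55.5 and the other 5 mice of that group 13.1 to 30.3. Of 9 genes of T and B lymphocytes, 6 were negative and 0 had an unadjusted p below 0.05, with a median of −0.31. The median was 0.04 without the 4 libraries high in Gm42418, and at a minimum value of 5 a single gene was left, at 0.39.

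**Figure D4:**
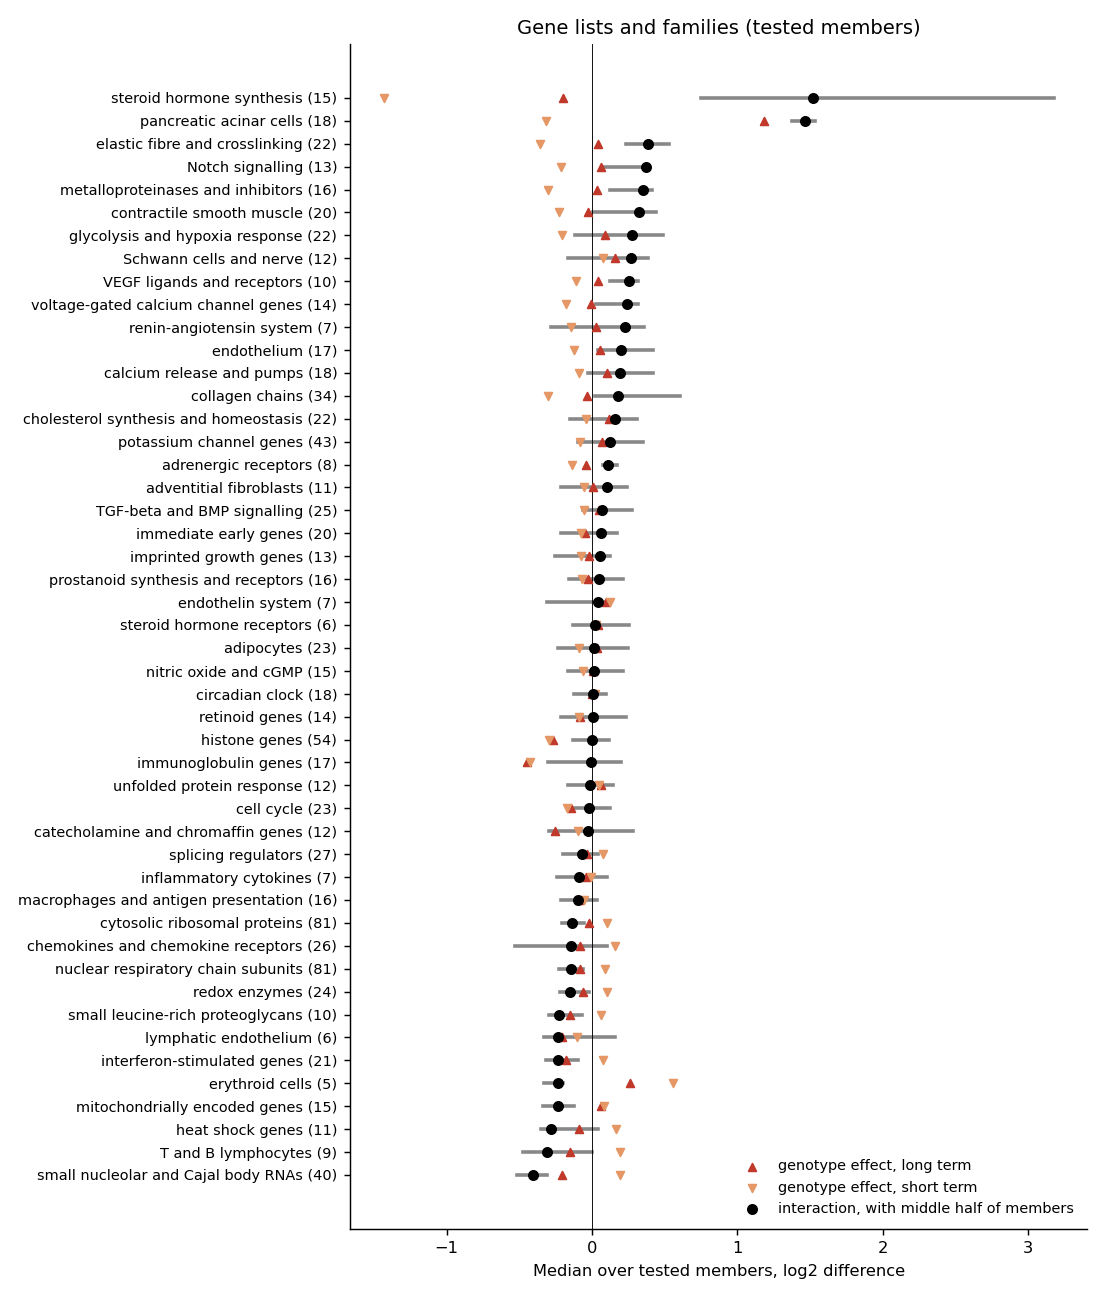
Median interaction over the tested members of each gene list or family with at least 5 tested members (black points, with grey bars from the lower to the upper quartile of members), and the median genotype effect at the long and short term (triangles), all in log2. Steroid hormone synthesis and pancreatic acinar genes lie at 1.52 and 1.46, and small nucleolar and Cajal body RNAs at −0.40.

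Genes of pancreatic acinar cells, which secrete digestive enzymes and are no part of an artery, had large but imprecise interactions. All 18 tested genes were positive, from 1.13 to 1.78, with a median of 1.46, and 0 had an unadjusted p below 0.05. Pnliprp2, a pancreatic lipase-related gene, had 13.2 to 628 (median 320) in ieET-1 long term and 3.40 to 252 (median 99.8) in ieCre long term, against 6.99 to 164 (median 29.6) in ieET-1 short term and 0.673 to 264 (median 84.0) in ieCre short term. All groups overlapped, and its interaction was 1.78 (SE 1.59, interval −1.51 to 5.07); that of the trypsin inhibitor gene Spink1 was 1.53 (interval −1.23 to 4.29). The summed level of all 20 listed genes, tested or not, was 1989 to 92086 in ieET-1 long term and 616 to 42613 in ieCre long term. At the short term it was 1430 to 29588 in ieET-1 mice and 142 to 39352 in ieCre mice. The median genotype difference of the 18 tested genes was −0.71 in IDs 80xx to 81xx and 2.14 in IDs 94xx, both at the long term. Without the 4 libraries high in Gm42418 the median interaction was −0.16. The part of pancreatic tissue in the samples was not tested.

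Genes of pancreatic islets had the opposite sign; they were chosen after their values were seen. Ins2, which encodes insulin, had the lowest interaction of all tested genes, −3.39 (interval −7.66 to 0.88, unadjusted p = 0.115), with values of 0.0758 to 39.2 (median 3.25) in ieET-1 long term and 0 to 744 (median 47.6) in ieCre long term, against 0 to 209 (median 2.33) in ieET-1 short term and 0.0662 to 5.37 (median 0.177) in ieCre short term. Ins1 had −3.28, Iapp −2.86 and the glucagon gene Gcg −2.03. None of the 4 had an unadjusted p below 0.05. Of 23 adipocyte genes, the perivascular fat that was dissected away, 12 were positive, and the median was 0.01. Only 1, Fabp4, was negative at an unadjusted p below 0.05 (−0.51, unadjusted p = 0.0481), where 2.28% of all genes were. RNA of adipocyte genes was nonetheless present in every library. The mean log2(value + 1) of the 23 genes ran from 6.41 to 7.71, and Fabp4 had values of 287 to 788.

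**Figure D5:**
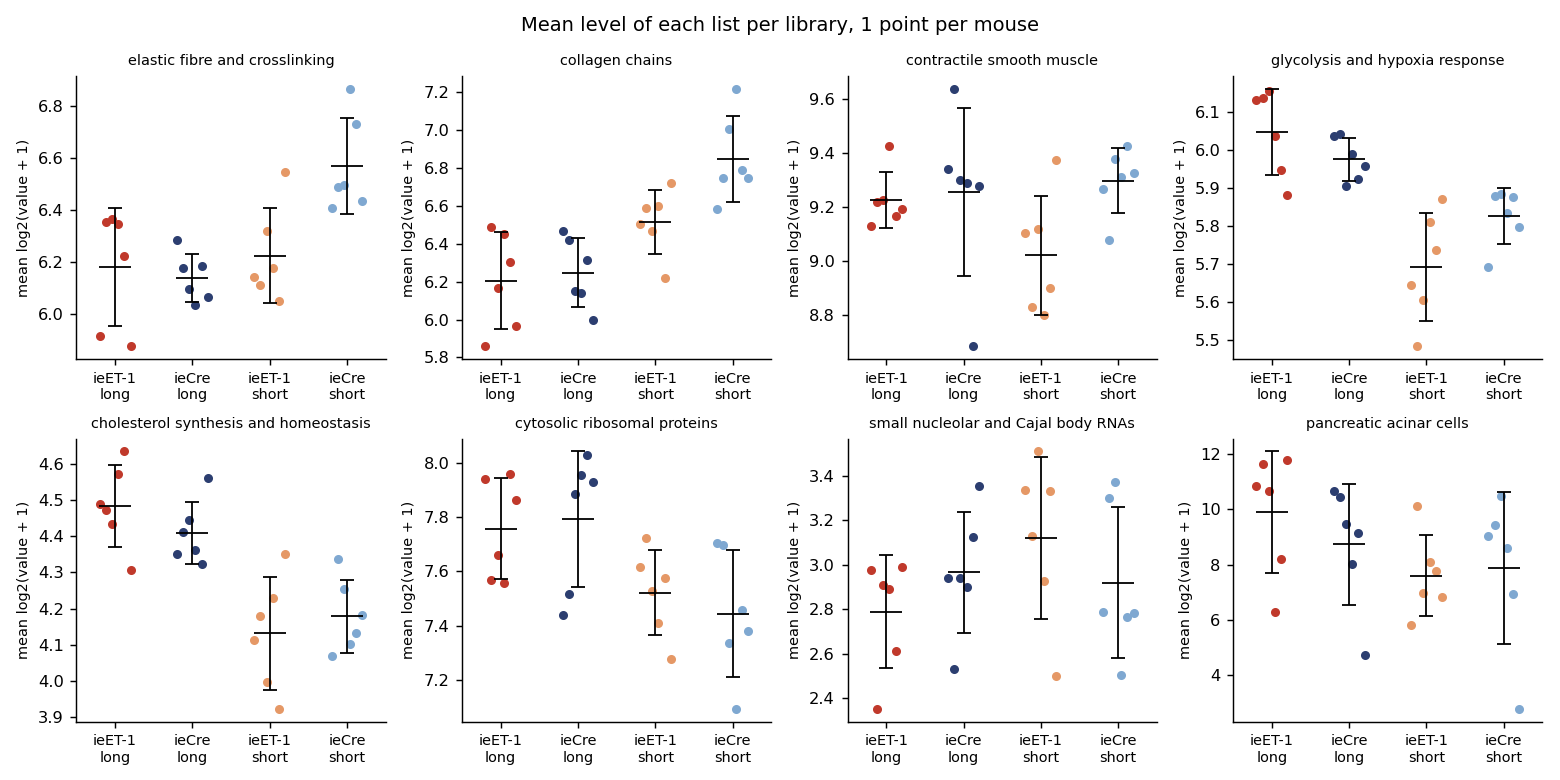
Mean log2(value + 1) over the tested members of 8 lists in each of the 4 groups; each point is a mouse and bars are the mean and SD over 6 mice. For elastic fibres the ieCre short-term mice lie between 6.41 and 6.87 and the ieET-1 short-term mice between 6.05 and 6.55, while the long-term genotypes overlap throughout; pancreatic acinar genes range from 2.76 to 11.8 over all libraries.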

How the data were processed

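Total RNA sequencing libraries of mesenteric arteries from 24 mice were used, 6 in each of 4 groups set by genotype and time in the labels. Per the labels' protocols, libraries were stranded and depleted of ribosomal RNA. Per the submitters' processing notes, edgeR 3.6.8, R 3.2.3, STAR 2.3.1, bcl2fastq 1.8.4 and FastQC were among the tools, without their roles. The sources used here give no genome build, annotation or read counter. The deposited values are a normalized signal, which the values themselves show to be whole reads divided by an effective library size. Dividing by the smallest value of a column gave whole reads for 100% of 482036 positive values within a tolerance of 0.001. A row named ID, which holds each mouse's ID number scaled like the reads, was dropped.

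Limma 3.58.1 (R 4.3.3) with a variance trend was fitted on log2(value + 1) as 1 means model over the 4 groups, with 20 residual degrees of freedom; p-values are two-sided, with Benjamini-Hochberg adjustment and a threshold of 0.05. Fold changes on this scale understate low genes. Alternatives were edgeR 4.0.16 and DESeq2 1.42.0 on recovered reads, other filters, pseudocounts, scalings and covariates, and each mouse left out. The code was tested on simulated data. Symbols for 28403 IDs (97.9%) and locations come from GENCODE M21 on GRCm38, which may differ from the authors' annotation. Nothing says whether mice of a group shared a litter or a day of dissection, and such structure would enter the p-values.

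The members and lists were chosen with earlier results of these data known, so no list has a test or a p of its own; lists are given by counts and medians beside all genes. A member of the cholesterol list is not reported here and is left out of its counts. Named are Edn1, Vegfa and Khdrbs3, the 12 genes with the smallest p in each direction (predicted genes and pseudogenes are only counted, 0 of them positive and 4 negative in the same span), genes that pass a genotype comparison, and 2 to 4 members of each list by smallest p. Symbol stems shared by 10 or more tested genes were screened for a share at an unadjusted p below 0.05 at least 3 times that of all genes; of 173 stems, 20 met this on the positive and 26 on the negative side, 4 of them on both. No 2 libraries were copies: chi-square per degree of freedom was at least 12.2 in all 276 pairs.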

Additional observations from a re-analysis of the deposited data

Results flagged for a closer look

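In each group of 6 mice, the highest and lowest value of each named gene, list mean and library measure were compared with the rest of the group. Of 432 groups examined, 27 held a mouse whose gap to its nearest neighbour was large for the range of its group, and chance alone flags about 1 in 20 groups. Mouse 9955 (ieCre short term) accounted for 7 of these and mouse 8992 (ieET-1 short term) for 3.

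In ieCre short term, mouse 9955 was low for Cyp11b1 (5.35, others 31.0 to 80.7), Hsd3b1 (8.17, others 88.9 to 191), Cyp11a1 (3.57, others 26.4 to 75.4) and Bmp5 (3.42, others 4.78 to 5.63), and high for Mfap2 (10.3, others 5.70 to 6.33). The same library had the fewest genes with reads of its group (18765) and 26.6% of reads on Gm42418. In ieET-1 short term, mouse 8992 was high for Cyp11b2 (0.142, others 0) and Ltbp2 (27.1) and low for Scarna13 (57.7). That Cyp11b2 value lies below 0.213, the equivalent of 3 reads in library 8992.

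Rpl3-ps1 was low in mouse 8152 (ieET-1 long term, 1.27, others 8.04 to 15.7) and high in mouse 8089 (ieCre long term, 11.9, others 1.06 to 2.42). Mouse 8152 was also high for the mean log2 value of contractile smooth muscle genes (9.43). Mvd was low in mouse 9490 (ieET-1 long term, 4.01) and mouse 8089 (ieCre long term, 4.20) and high in mouse 10 (ieCre short term, 5.85). In ieCre long term, mouse 9487 was high for Ltbp2 (58.9) and low for Kcnk3 (5.12), mouse 8088 was high for the mean log2 value of endothelin genes (4.69) and of chromaffin genes (4.26), and mouse 9491 had 11.5% of reads on Gm42418. Mouse 9489 (ieET-1 long term) had reads on 24399 genes, others on 19064 to 20414. In ieET-1 short term, mouse 258 was low for Ssbp4 (13), and mouse 257 was high for Gm42418 (0.106% of reads) and for the mean log2 value of respiratory chain subunits (5.71). In ieCre short term, mouse 8754 was high for Kcnd3 (6.26) and mouse 8 low for Eno1 (90.9).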

How the results depend on the processing

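No paired analysis was possible because each mouse has its own animal ID and no number is shared between groups. The count of genes passing the interaction was 0 in every alternative except DESeq2, which called 6; with each mouse left out it stayed at 0, with 473 (without mouse 8135) to 1358 (without mouse 9489) genes at an unadjusted p below 0.05 and a smallest adjusted p of 0.0563 (without mouse 9955) to 0.942. The long-term genotype comparison called 1 gene in each setting except with no filter on low values, where it called 2. The short-term comparison called 12 genes, against 41 by DESeq2, 7 by edgeR and 55 with library weights. It called 19 with animal ID range as a term and 23 without the 4 libraries high in Gm42418. It called 1 each with no filter, with the adrenal score as a term and with the adrenal, pancreatic and adipocyte scores as terms. With each mouse left out it called 1 (without mouse 256, 257, 258 or 9957) to 21 (without mouse 9955). The causes of these changes were not tested. Single genes changed sign in these settings: with the adrenal score as a term Cyp11b1 had −0.071, Hsd3b1 −0.23 and Cyp11a1 −0.42, and with all 3 scores as terms Srd5a2 had −0.022, Cyp11b1 −0.024, Hsd3b1 −0.18 and Cyp11a1 −0.48; the scores hold Cyp11b1, Hsd3b1 and Cyp11a1 themselves. Acta2 had −0.19 under quantile normalization, which moved the median interaction of all genes by −0.02. The collagen chains at an unadjusted p below 0.05 with a positive sign numbered 6, against 2 without the libraries high in Gm42418, 2 under quantile normalization and 4 to 11 with each mouse left out. Where a gene is at 0 in a library, a level below 0.177 to 0.461, the equivalent of 3 reads, could go unseen at that depth.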

Other observations

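Among genes outside the lists and the rule for named genes, chosen after their values were seen, Rgs5 and Esm1 had negative interactions. Rgs5, a regulator of G protein signalling in pericytes and smooth muscle, had values of 723 to 1597 (median 1213) in ieET-1 long term and 1022 to 1771 (median 1136) in ieCre long term, against 518 to 1390 (median 996) in ieET-1 short term and 164 to 978 (median 541) in ieCre short term. Its interaction was −1.18 (interval −2.10 to −0.25, unadjusted p = 0.0151). Esm1, a proteoglycan secreted by endothelial cells, had 1.90 to 10.3 (median 4.18) in ieET-1 long term and 3.12 to 11.2 (median 7.34) in ieCre long term, against 4.69 to 21.5 (median 15.4) in ieET-1 short term and 4.01 to 13.5 (median 7.38) in ieCre short term, with an interaction of −1.31 (interval −2.38 to −0.24, unadjusted p = 0.0186). For both genes the genotypes overlapped at each time, and neither passed over all genes. Gm42418 itself had an interaction of 3.37 with an interval of −1.65 to 8.39.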
